A study of Caenorhabditis elegans with 16 samples.

Results

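The genes described here encode the proteins that start, carry through and end translation on cytosolic ribosomes of *Caenorhabditis elegans*. They were chosen by name, as the genes whose symbol in the deposited 20 °C comparison table begins with *eif-*, *ife-*, *ifg-*, *iff-*, *eef-* or *erfa-*, leaving out *eif-2D*. That gene was lower in mutants at both temperatures (log2 fold change -1.59 ± 0.10 at 25 °C and -1.64 ± 0.07 at 20 °C, SE, edgeR), so the counts by direction given here are those without it. This gave 39 genes of the 21882 in the count tables. By role they fall into 9 classes, namely 2 factors of start site selection, 4 eIF2 genes, 5 subunits of eIF2B, 11 subunits of eIF3, 6 cap-binding genes (the eIF4E genes and *ifg-1* of eIF4G), 2 eIF5A genes, *eif-6*, 6 elongation factors and 2 release factors. The 2 release factors came in through their prefix, and eIF3 subunits that carry other names, such as *egl-45* and *cif-1*, were not taken.

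Polyadenylated RNA was sequenced from mixed-stage embryos of *fbxa-215(syb4404)* mutants and of N2 wild-type worms, to ask which genes change in mutants of this F-box gene. The 4 groups were mutants grown at 25 °C, wild type grown at 25 °C, mutants grown at 20 °C and wild type grown at 20 °C, with 4 libraries each. The mutant strain, SX3678, was outcrossed 4 times to N2, and its deletion removes the coding sequence of *fbxa-215*. All worms were synchronized by bleaching at 20 °C, plated as starved L1 larvae on HB101 bacteria and bleached again as gravid adults to free the embryos, about 47 hours after plating at 25 °C and about 56 hours at 20 °C. Temperature, hours after plating and batch therefore cannot be told apart. The labels do not say that the 4 libraries of a group came from separate cultures, so p-values measure the spread between these samples, which may be technical.

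Total estimated counts were 13369185 to 15611050 in mutants at 25 °C, 13818575 to 15659770 in wild type at 25 °C, 12856217 to 16777296 in mutants at 20 °C and 10001670 to 14180839 in wild type at 20 °C. The mutated gene had 0 counts in the 4 mutant libraries at 25 °C, against 160 ± 8.44 CPM (counts scaled to equal library totals) in wild type (SD, n = 4, exact permutation p = 0.0286, two-sided, the smallest that 4 against 4 libraries allow). At 20 °C it had 0 counts in 3 mutant libraries and 1 in the other, against 233 ± 7.22 CPM in wild type (SD, n = 4, exact permutation p = 0.0286, two-sided). The 10 transcripts of adults and sperm that were looked up, vitellogenins among them, summed to 1.14 to 4.03 CPM in the 16 libraries, and transcripts of early zygotic genes to 363 to 539 CPM. A stage score, the mean log2 CPM of 22 late differentiation genes minus that of 20 maternal genes, was 0.10 ± 0.13 in mutants and 0.41 ± 0.07 in wild type at 25 °C (SD, n = 4 each, exact permutation p = 0.0286, two-sided). At 20 °C it was -1.99 ± 0.19 in mutants and -1.72 ± 0.12 in wild type (SD, n = 4 each, exact permutation p = 0.0571, two-sided), with overlapping libraries. In bulk RNA, fewer cells of a type and less RNA per cell cannot be told apart.

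A ribosome begins when eIF2 brings the initiator tRNA to the small subunit, where eIF1, eIF1A and the large eIF3 complex hold the scanning machinery together and eIF4E with eIF4G ties it to the cap of the mRNA. Each round spends the GTP on eIF2, and eIF2B reloads it, the step that stress kinases block by phosphorylating eIF2 alpha. During elongation eEF1A carries aminoacyl-tRNAs to the ribosome, the eEF1B complex recharges eEF1A, eEF2 moves the ribosome by a codon and eIF5A relieves stalls, until eRF1 and eRF3 release the finished chain. *C. elegans* has several genes for some of these proteins, with germline and somatic forms of eIF5A and 5 forms of eIF4E, and its early embryo translates mRNA loaded by the mother.

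All 39 genes had enough counts to be tested in every comparison. The lowest estimated count of any of them in any library was 58.0, for *ife-5*, and the other 38 never fell below 345 counts. Elongation factors made up most of the signal. *eef-1A.1*, the main eEF1A gene, had the highest count of all genes in all 16 libraries. Its level was 3803 ± 175 CPM per kb of exon in mutants and 3549 ± 250 in wild type at 25 °C, and 7789 ± 70.2 in mutants and 7331 ± 412 in wild type at 20 °C (SD, n = 4 each). *eef-2*, the translocase, ranked between 9 and 15 by count. The 39 genes together held 1.76% to 1.82% of the counts of a mutant library and 1.68% to 1.88% of a wild-type library at 25 °C, against 2.51% to 2.55% in mutants and 2.34% to 2.51% in wild type at 20 °C. Elongation factors were 66.4% to 68.2% of these at 25 °C and 71.8% to 73.4% at 20 °C.

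**Figure D1:**
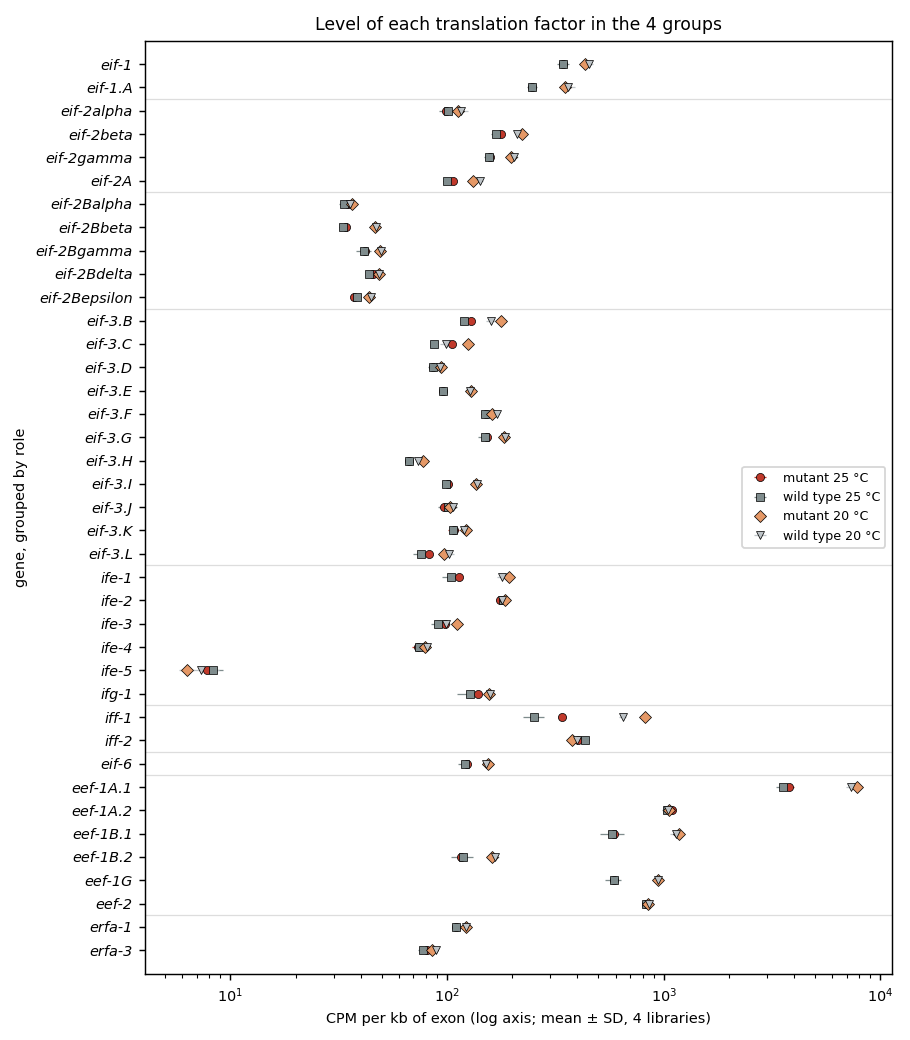
Level of each of the 39 genes per kb of exon on a log axis, with 1 symbol per group (mean of 4 libraries) and bars for SD. *eef-1A.1* lies highest, at 3549 to 7789 CPM per kb, the 5 eIF2B subunits lie together at 33.2 to 49.4 and *ife-5* lies lowest, at 6.30 to 8.28.

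Per kb of exon, the 5 eIF2B subunits spanned 34.1 to 45.3 CPM per kb in mutants and 33.2 to 43.4 in wild type at 25 °C, and 36.6 to 49.2 in mutants and 35.5 to 49.4 in wild type at 20 °C. This exchange factor lay below every eIF2 gene, of which the lowest mean was 98.5. The 11 eIF3 subunits spanned 66.6 to 153 CPM per kb in mutants and 66.8 to 150.4 in wild type at 25 °C, and 77.2 to 184 in mutants and 73.3 to 184 in wild type at 20 °C, with *eif-3.H* lowest in each group. In the complex that recharges eEF1A the levels were further apart, at 589 ± 33.4 CPM per kb for *eef-1B.1*, 590.5 ± 26.2 for *eef-1G* and 117 ± 3.18 for *eef-1B.2* in mutants at 25 °C (SD, n = 4 each). Among the eIF4E genes *ife-5* was 21.9 to 30.8 times lower than the most abundant cap-binding gene of its group, which was *ife-1* in mutants at 20 °C and *ife-2* in the other 3 groups.

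At 20 °C, 6 of the 39 genes were higher in mutants and 0 were lower (edgeR quasi-likelihood test, Benjamini-Hochberg adjusted p under 0.05, called past the test from here on), with *eif-2D*, which was lower, left out by the rule. Over all 10471 genes tested, 17.3% were past the test, 7.65% higher and 9.66% lower. The 6 genes were *iff-1* (germline eIF5A), *eif-3.C* and *eif-3.B* (core eIF3 subunits), *ife-1* and *ife-3* (eIF4E) and *eef-1A.1*. None reached the fold change of 2 that the study also asked for, as 1.13% of all genes did. The median log2 fold change of the 39 was 0.012, against 0.0015 over all genes, and 23 of 39 were above 0, against 50.4% of all genes. At 25 °C, 2 genes were past the test, *iff-1* and *eif-3.C*, both higher in mutants, where 4.14% of 11945 genes were past it, 2.09% higher and 2.04% lower. Neither reached a fold change of 2, as 0.318% of all genes did. The median of the 39 was 0.017 at 25 °C, against -0.0023 over all genes, and 26 were above 0, against 49.3% of all genes. Mutants and wild type at 25 °C shared no library with those at 20 °C, and 1.2% of the 10382 genes tested at both temperatures were higher in mutants at both.

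**Figure D2:**
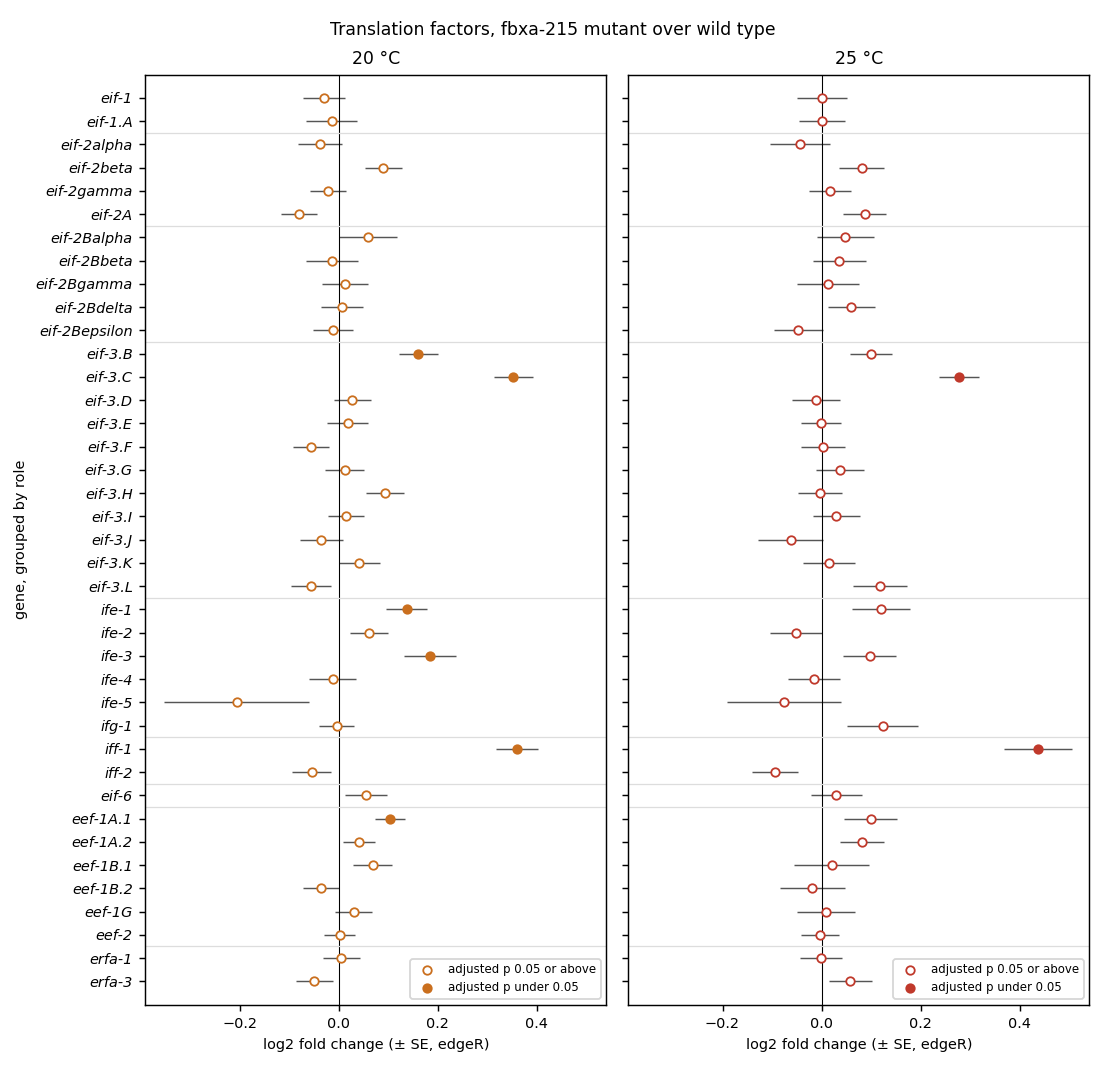
Log2 fold change of mutants over wild type for each of the 39 genes, grouped by role, at 20 °C (left) and 25 °C (right), with bars for the standard error from edgeR and filled symbols for adjusted p under 0.05. *iff-1* and *eif-3.C* stand to the right at both temperatures, at 0.36 and 0.35 at 20 °C and at 0.44 and 0.28 at 25 °C, while 33 genes at 20 °C and 37 at 25 °C have open symbols.

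*iff-1* (WBGene00002064, chromosome III, 9745862 to 9747193, minus strand of WBcel235) encodes the eIF5A that germ cells need in order to proliferate. A noncoding gene but no other coding gene overlaps it in the annotation. In mutant libraries at 25 °C it had 234, 216, 230.5 and 239 CPM, against 177, 160, 149 and 193 CPM in wild type. At 20 °C it had 511, 550.3, 575 and 581 CPM in mutants, against 449, 413, 437 and 449 CPM in wild type. The lowest mutant library lay above the highest wild-type library at each temperature, and the 4 groups did not overlap at all, with mutants at 20 °C highest, then wild type at 20 °C, mutants at 25 °C and wild type at 25 °C. The log2 fold change of mutants over wild type was 0.44 ± 0.07 at 25 °C (SE, adjusted p = 0.00329) and 0.36 ± 0.04 at 20 °C (SE, adjusted p = 4.28e-06). Leaving out any library kept *iff-1* past the test, at 0.38 to 0.50 at 25 °C and 0.33 to 0.40 at 20 °C.

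*eif-3.C* (WBGene00001226, chromosome I, 9976426 to 9979662, minus strand) encodes subunit c, which in yeast and mammals joins eIF3 to eIF1 and to the 40S subunit. Mutant libraries at 25 °C had 317, 315.5, 320.5 and 318 CPM, against 270.0, 263, 261 and 255 CPM in wild type. Mutant libraries at 20 °C had 375, 381, 369 and 377 CPM, against 317, 294, 276 and 302 CPM in wild type. The strains did not overlap at either temperature, whereas mutants at 25 °C overlapped wild type at 20 °C. The log2 fold change was 0.28 ± 0.04 at 25 °C (SE, adjusted p = 0.00161) and 0.35 ± 0.04 at 20 °C (SE, adjusted p = 1.88e-06), and it ranged over 0.26 to 0.29 and 0.31 to 0.38 with any library left out. No other coding gene overlaps it in the annotation.

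Of the other 10 eIF3 subunits 1 was past the test at 20 °C and 0 were at 25 °C. *eif-3.B*, subunit b and another part of the core, had 450.2, 459.9, 447 and 477 CPM in mutants at 20 °C, against 431, 388, 435 and 406 CPM in wild type. All 4 mutant libraries lay above all 4 wild-type libraries, with a log2 fold change of 0.16 ± 0.04 (SE, adjusted p = 0.00624). At 25 °C *eif-3.B* had 328, 327, 340.3 and 338 CPM in mutants, against 296, 311, 317 and 321 CPM in wild type. These did not overlap either, but the difference of 0.10 ± 0.04 was not past the test (SE, adjusted p = 0.186). The other 9 subunits were not past it at 20 °C or at 25 °C. Among them *eif-3.G*, the most abundant per kb in 3 of the 4 groups and a subunit that binds RNA, had 164, 163, 164 and 165 CPM in mutants at 25 °C, against 161, 148, 157 and 173 CPM in wild type. At 20 °C it had 198, 199.6, 204 and 187 CPM in mutants, against 187, 199.8, 207 and 198 CPM in wild type, so that the strains overlapped at both temperatures.

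**Figure D3:**
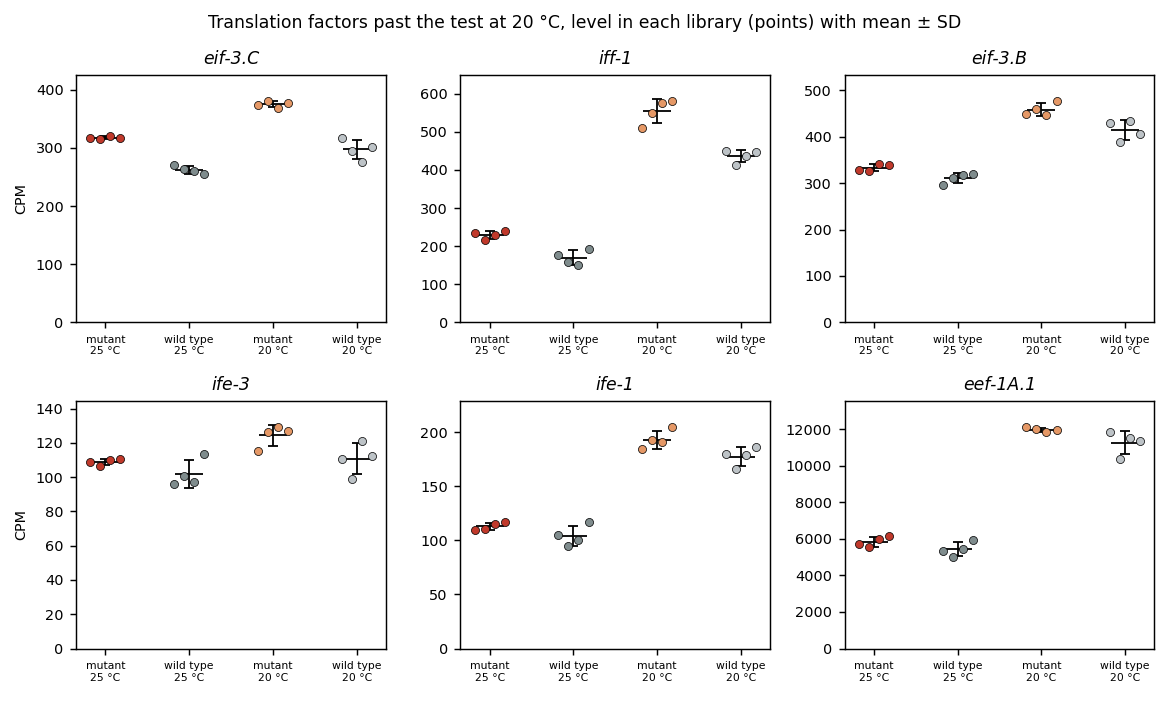
Level in CPM of the 6 genes past the test at 20 °C, 1 point per library, in mutants and wild type at 25 °C and at 20 °C, with the mean and SD of 4 libraries. For *eif-3.C* and *iff-1* the mutant points lie above the wild-type points at both temperatures, and for *ife-3* and *ife-1* they overlap with them at both.

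The cap-binding genes gave 2 weaker calls. *ife-3*, the eIF4E gene closest to that of mammals, had 115.2, 126, 129 and 127 CPM in mutants at 20 °C, against 110.3, 98.9, 121 and 113 CPM in wild type. *ife-1*, an eIF4E found with germ granules, had 184, 192, 191 and 204 CPM in mutants at 20 °C, against 179.9, 166, 179 and 186 CPM in wild type. For each, 1 wild-type library lay within the range of the mutants. The log2 fold changes were 0.18 ± 0.05 (SE, adjusted p = 0.0160) for *ife-3* and 0.14 ± 0.04 (SE, adjusted p = 0.0273) for *ife-1*. Without mutant replicate 2 or 3 or wild-type replicate 2, *ife-3* was no longer past the test, with adjusted p of 0.0544 to 0.0752. *ife-1* was lost without mutant replicate 2, 3 or 4 or wild-type replicate 1 or 2, with adjusted p of 0.0518 to 0.106, and with all 16 libraries in 1 fit (adjusted p = 0.0738, edgeR). Each of these genes overlaps another coding gene, *B0348.5* for *ife-3* and *dro-1* for *ife-1*, and the libraries do not keep strand, so that reads of the overlapping stretch cannot be told apart.

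At 25 °C neither eIF4E gene was past the test with all libraries, and wild-type replicate 4 decided this. *ife-3* had 109, 107, 109.9 and 110.4 CPM in mutants, against 96.0, 100.4, 97.4 and 113 CPM in wild type. *ife-1* had 110.0, 110.9, 115.1 and 117 CPM in mutants, against 105, 94.7, 100.6 and 117 CPM in wild type. In both genes wild-type replicate 4 was the highest of its group and the other 3 wild-type libraries lay below all mutant libraries. Without it, 5 of the 39 genes were past the test at 25 °C, all higher in mutants, namely *iff-1* at 0.50, *eif-3.C* at 0.26, *ife-1* at 0.18 (adjusted p = 0.0276), *ife-3* at 0.15 (adjusted p = 0.0355) and *eef-1A.1* at 0.15 (adjusted p = 0.0425, edgeR). With any other library at 25 °C left out, 2 were past it. The 4.14% of all genes given above belongs to the fit with all libraries. The share without replicate 4 is not given here, so the 5 genes cannot be set against it.

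The other eIF4E forms did not differ between strains beyond their spread. *ife-2*, a form that also binds trimethylated caps, had 148, 139, 152 and 146 CPM in mutants at 25 °C, against 156, 149, 139.5 and 162 CPM in wild type. At 20 °C *ife-2* had 151, 155, 159 and 151 CPM in mutants, against 145.5, 151, 146 and 155 CPM in wild type. *ife-4*, a divergent eIF4E, had 58.5 to 66.2 CPM in mutants and 60.8 to 65.8 CPM in wild type at 25 °C, and 62.8 to 71.3 CPM in mutants and 66.2 to 71.9 CPM in wild type at 20 °C. *ife-5*, a close relative of *ife-1*, had only 6.09 to 7.14 CPM in mutants and 6.16 to 8.07 CPM in wild type at 25 °C, and 4.88 to 5.87 CPM in mutants and 4.74 to 7.89 CPM in wild type at 20 °C. Its differences of -0.08 ± 0.12 and -0.21 ± 0.15 on the log2 scale carry the widest errors of the 39 genes (SE). *ifg-1*, the eIF4G scaffold, was not past the test at either temperature, with adjusted p of 0.326 at 25 °C and 0.950 at 20 °C, and wild-type replicate 4 at 25 °C was its lowest library, at 496 CPM against 572 to 664 CPM in the other 3.

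Among elongation factors 1 gene was past the test. *eef-1A.1* had 12100, 11987, 11836 and 11965 CPM in mutants at 20 °C, against 11826, 10366, 11536 and 11341 CPM in wild type. The lowest mutant library lay just above the highest wild-type library, and the log2 fold change was 0.10 ± 0.03 (SE, adjusted p = 0.0211). Without mutant replicate 2 or wild-type replicate 2 it was not past the test (adjusted p = 0.0888 and 0.0754, edgeR), nor with all 16 libraries in 1 fit (adjusted p = 0.111). Another coding gene, *F31E3.12*, overlaps it. Its sister gene *eef-1A.2*, which encodes a nearly identical eEF1A, had 1954 to 2149 CPM in mutants and 1953 to 2078 CPM in wild type at 20 °C. At 25 °C *eef-1A.2* had 2061 to 2161 CPM in mutants and 1907 to 2149 CPM in wild type, and neither difference was past the test. How the counting divided reads between these near-identical genes was not tested. The 3 genes of the exchange complex, *eef-1B.1*, *eef-1B.2* and *eef-1G*, had log2 fold changes of -0.04 to 0.07 at 20 °C and -0.02 to 0.02 at 25 °C, and *eef-2* had 0.0016 and -0.0029.

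None of the genes of start site selection, eIF2, eIF2B, eIF6 or release was past the test between strains at either temperature. *eif-2beta*, whose protein helps bind the initiator tRNA complex, came nearest at 20 °C, with 235.2, 241, 253 and 243 CPM in mutants against 225, 234, 232 and 233 CPM in wild type (log2 fold change 0.09 ± 0.04, SE, adjusted p = 0.0936). Its strains did not overlap at 20 °C, and at 25 °C, where they did, it had 199, 197, 197 and 191 CPM in mutants against 182, 177, 184 and 199 CPM in wild type. *eif-2A*, a separate protein that shares only its name with the eIF2 complex, lay below wild type in all mutant libraries at 20 °C, at 263 to 278 CPM against 279.5 to 306 CPM, and above it at 25 °C, at 214 to 223 CPM against 193 to 212 CPM. Neither of its differences, -0.08 ± 0.04 and 0.09 ± 0.04, was past the test (SE, adjusted p = 0.139 and 0.241). *eif-2A* was the only gene of the 39 whose strains were separated in opposite directions.

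In the same classes, *eif-2Bdelta*, a regulatory subunit of eIF2B, had 92.7 to 103 CPM in mutants and 90.3 to 96.3 CPM in wild type at 25 °C, and 102 to 107 CPM in mutants and 96.4 to 109 CPM in wild type at 20 °C. *eif-1*, which guards the choice of the start codon, had 195 to 205 CPM in mutants and 185 to 212 CPM in wild type at 25 °C, and 239.9 to 264 CPM in mutants and 249.5 to 282 CPM in wild type at 20 °C. *eif-6*, which keeps free 60S subunits from joining too soon, had 121 to 128 CPM in mutants and 116 to 133 CPM in wild type at 25 °C. At 20 °C it had 142.1 to 162 CPM in mutants and 145 to 159 CPM in wild type. *erfa-1*, the eRF1 that reads stop codons, had 213 to 226 CPM in mutants and 212 to 224 CPM in wild type at 25 °C, and 237 to 246 CPM in mutants and 233 to 259 CPM in wild type at 20 °C. Strains overlapped for each of these genes at both temperatures.

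The precision of these comparisons was a few percent. Outside *ife-5*, standard errors of the log2 fold change were 0.03 to 0.06 at 20 °C and 0.04 to 0.08 at 25 °C, and the other genes not past the test lay no further from 0 than 0.09 at 20 °C and 0.12 at 25 °C. Strains did not overlap in 5 genes higher and 1 lower in mutants at 20 °C, as in 7.3% and 11.7% of all genes. At 25 °C they did not overlap in 4 genes, all higher in mutants, as in 6.94% of all genes.

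Levels of stage markers moved between the strains as well. At 20 °C, 10 of the 19 late differentiation genes tested were lower in mutants and 1 was higher, with the list summing to 2458 to 2972 CPM in mutants and 2798 to 3349 CPM in wild type. The 20 maternal genes summed to 3129 to 3356 CPM in mutants and 3382 to 3508 CPM in wild type at 20 °C, and to 2370 to 2535 CPM in mutants and 2039 to 2269 CPM in wild type at 25 °C. At 25 °C, 2 of 22 late genes were lower and 6 of 18 maternal genes higher in mutants, and late genes summed to 5434 to 6201 CPM in mutants and 5731 to 6480 CPM in wild type. With the stage score as a covariate, *eif-3.C* and *iff-1* stayed past the test at 20 °C, at 0.38 ± 0.06 (SE, adjusted p = 0.000129) and 0.25 ± 0.05 (SE, adjusted p = 0.00440), whereas *eif-3.B*, *ife-1*, *ife-3* and *eef-1A.1* did not, at 0.10, 0.07, 0.04 and 0.08. The share of all genes past the test in that 20 °C fit is not given here, so these calls cannot be set against it. At 25 °C the fit with this covariate left *eif-3.C* at 0.29 ± 0.08 (SE, adjusted p = 0.414) and *iff-1* at 0.19 ± 0.11 (SE, adjusted p = 0.639), and only 8 of all genes were past the test in it. The stage score did not overlap between strains at 25 °C, at -0.02 to 0.23 in mutants and 0.32 to 0.49 in wild type. The 25 °C fit therefore cannot tell strain and stage apart.

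Whether the mutant effect itself differed between temperatures was tested in a fit of all 16 libraries. None of the 39 genes was past that interaction test, where 1.16% of 12117 genes were, and 0 were past it with DESeq2 or limma-voom. At an unadjusted p under 0.05 there were 3, *eif-2A*, *eif-3.H* and *ife-2*, against 14.5% of all genes. For *iff-1* the log2 effect at 25 °C minus that at 20 °C was 0.04 ± 0.09 in this fit (SE, adjusted p = 0.855), and for *eif-3.C* it was -0.11 ± 0.05 (SE, adjusted p = 0.369, edgeR). This fit scales all 16 libraries together, so these values are not the exact differences of the effects from the separate fits. The cytosolic ribosomal protein genes, which make the machine that these factors serve, gave other counts. Of 77 tested, 68 were higher and 0 lower in mutants at 20 °C, beside 7.65% and 9.66% of all genes. At 25 °C 1 was higher and 0 were lower, beside 2.09% and 2.04% of all genes. There 67 of the 77 had a log2 fold change below 0, with a median of -0.07. In the interaction 38 of the 77 were past the test, all of them lower at 25 °C minus 20 °C. The difference between these 2 families was not tested.

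Growth temperature, with the hours and batch that went with it, moved these genes more than the strain did. In mutants 28 of the 39 were lower at 25 °C than at 20 °C and 3 were higher. Over all 11558 genes 69.3% were past the test, 33.0% lower and 36.3% higher. In wild type 25 were lower and 1 higher, where 66.1% of 11579 genes were past the test, 31.3% lower and 34.8% higher. These comparisons share no library. Both found 23 genes lower and 1 higher, so that 24 genes made up 77.4% of the mutant list and 92.3% of the wild-type list, while 26.9% of 11319 genes were lower in both and 30.7% higher in both. The median log2 fold change of the 39 was -0.19 in mutants and -0.21 in wild type, against 0.0043 and 0.0022 over all genes. All 4 libraries at 25 °C lay below all 4 at 20 °C for 29 of the 39 genes in mutants and 29 in wild type, beside 33.7% and 32.7% of all genes.

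**Figure D4:**
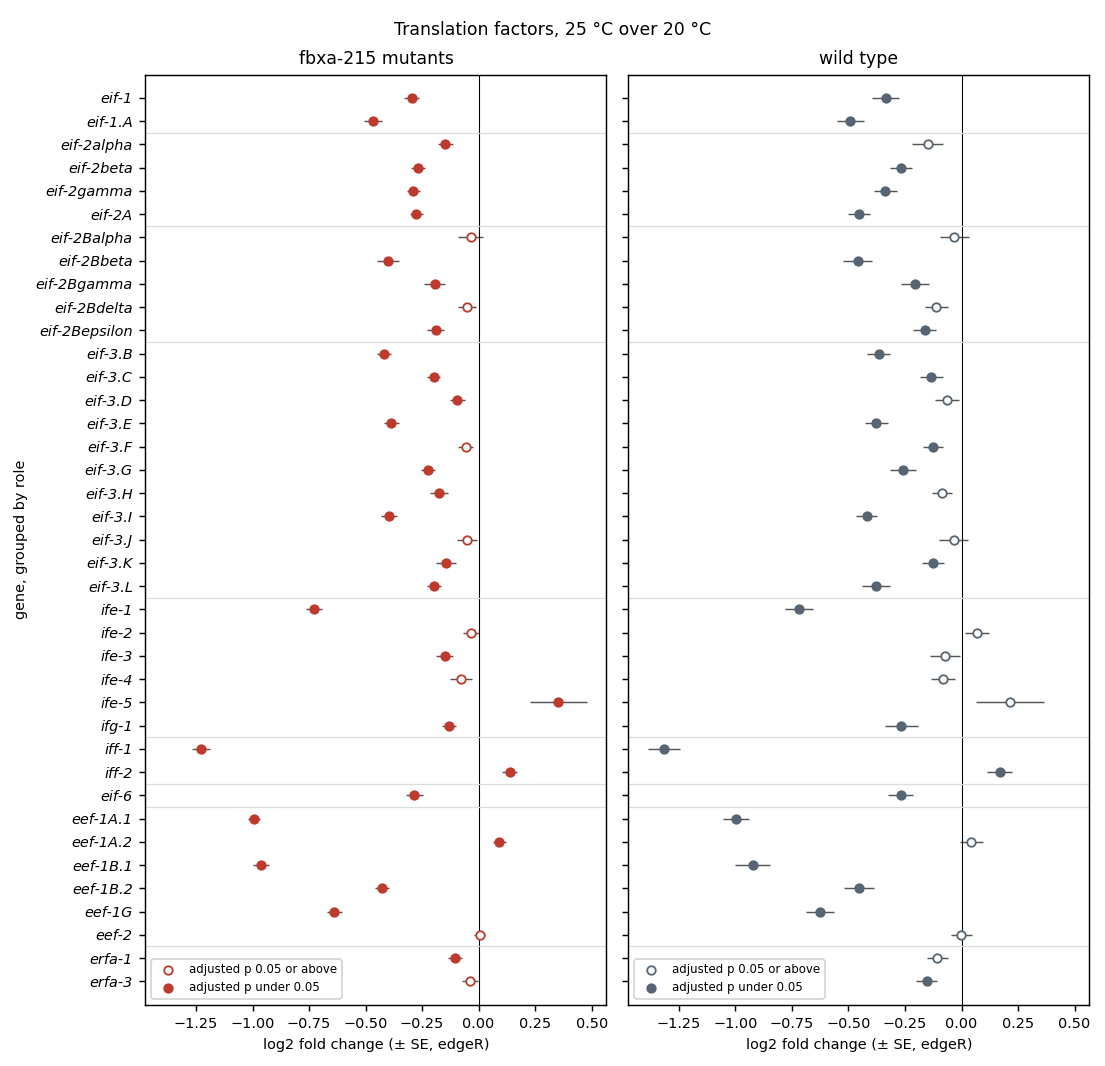
Log2 fold change of 25 °C over 20 °C for each of the 39 genes, grouped by role, in mutants (left) and wild type (right), with bars for the standard error from edgeR and filled symbols for adjusted p under 0.05. *iff-1*, *eef-1A.1* and *eef-1B.1* lie furthest to the left, at -1.23, -0.99 and -0.96 in mutants and -1.32, -0.998 and -0.92 in wild type, while *eef-2* lies near 0, at 0.0039 in mutants and -0.0005 in wild type.

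The falls were uneven within pathways. Of the 39, *iff-1* alone was past a fold change of 2, with log2 fold changes of -1.23 ± 0.04 in mutants (SE, adjusted p = 1.88e-18) and -1.32 ± 0.07 in wild type (SE, adjusted p = 2.14e-10), a size that 1.05% and 1.13% of all genes reached downward. *iff-2*, the somatic eIF5A, rose instead. It had 399, 409, 420.0 and 412 CPM in mutants at 25 °C, against 401, 384, 387 and 362 CPM in mutants at 20 °C. In wild type it had 444, 408, 435 and 462 CPM at 25 °C, against 402, 401, 384 and 424 CPM at 20 °C. The temperatures overlapped in 1 or more libraries of each strain, and the log2 fold changes were 0.14 ± 0.03 in mutants (SE, adjusted p = 0.000577, but 0.0777 with all 16 libraries in 1 fit) and 0.17 ± 0.05 in wild type (SE, adjusted p = 0.0120, but 0.0676 without replicate 3 at 20 °C).

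Set per length, the balance of the eIF5A pair turned over. Germline *iff-1* was at 0.84 ± 0.04 of *iff-2* in mutants and 0.58 ± 0.05 in wild type at 25 °C, and at 2.18 ± 0.21 in mutants and 1.63 ± 0.08 in wild type at 20 °C (SD, n = 4 each, CPM per kb). Every library at 20 °C lay above 1, at 1.55 to 2.41, and every library at 25 °C below it, at 0.52 to 0.88. The mutants lay above the wild type at each temperature without overlap, at 0.79 to 0.88 against 0.52 to 0.63 at 25 °C and at 1.92 to 2.41 against 1.55 to 1.71 at 20 °C.

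**Figure D5:**
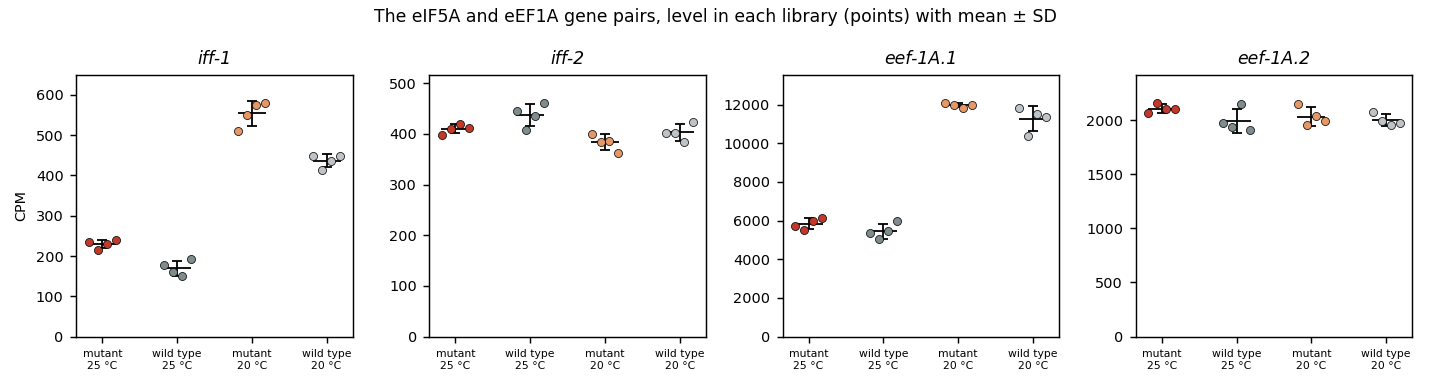
Level in CPM of *iff-1*, *iff-2*, *eef-1A.1* and *eef-1A.2*, 1 point per library, in mutants and wild type at 25 °C and at 20 °C, with the mean and SD of 4 libraries. *iff-1* and *eef-1A.1* are lower in both strains at 25 °C, while *iff-2* stays between 362 and 462 CPM and *eef-1A.2* between 1907 and 2161 CPM.

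Of the eEF1A genes, *eef-1A.1* had 5724, 5534, 5979 and 6142 CPM in mutants and 5359, 5032, 5464 and 5961 CPM in wild type at 25 °C, below the 20 °C values given above in every library. Its log2 fold change was -0.99 ± 0.03 in mutants (SE, adjusted p = 9.04e-20) and -0.998 ± 0.06 in wild type (SE, adjusted p = 7.43e-10). *eef-1A.2* had log2 fold changes of 0.09 ± 0.03 in mutants (SE, adjusted p = 0.00710) and 0.04 ± 0.05 in wild type (SE, adjusted p = 0.449). In mutants it was not past the test without replicate 2 or 4 at 20 °C, without replicate 2 or 3 at 25 °C or with all 16 libraries in 1 fit (adjusted p = 0.0617 to 0.335, edgeR). Per length *eef-1A.1* stood at 3.46 ± 0.19 times *eef-1A.2* in mutants and 3.43 ± 0.33 times in wild type at 25 °C, against 7.36 ± 0.27 times in mutants and 7.04 ± 0.38 times in wild type at 20 °C (SD, n = 4 each).

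The genes that recharge eEF1A fell with it. *eef-1B.1* had 465.5, 477, 515 and 522 CPM in mutants at 25 °C, against 946, 993, 1015 and 1013 CPM in mutants at 20 °C. In wild type it had 500.1, 421, 463 and 567 CPM at 25 °C, against 995, 897, 1012 and 924 CPM at 20 °C, without overlap in either strain. *eef-1G* had log2 fold changes of -0.64 in mutants and -0.63 in wild type, and *eef-1B.2* of -0.43 and -0.45. *eef-2*, which acts after them in each cycle, was not past the test, at 0.0039 ± 0.03 in mutants and -0.0005 ± 0.05 in wild type (SE). In mutants its 4 libraries at 25 °C, at 2307 to 2328 CPM, nevertheless lay below its 4 libraries at 20 °C, at 2336 to 2418 CPM, in CPM scaled over all 16 libraries, so that it is among the 29 genes separated downward.

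Among the eIF4E genes *ife-1* fell furthest, with -0.73 ± 0.04 in mutants and -0.72 ± 0.06 in wild type (SE, adjusted p = 7.71e-15 and 6.77e-08). Against *ife-2* its level per length was 0.65 ± 0.02 in mutants and 0.58 ± 0.04 in wild type at 25 °C, and 1.05 ± 0.06 in mutants and 1.00 ± 0.05 in wild type at 20 °C (SD, n = 4 each). *ife-2* and *ife-4* were not past the test in either strain, at -0.03 and -0.08 in mutants and 0.07 and -0.08 in wild type. *ife-3* was lower in mutants, at -0.15 (adjusted p = 0.00122), with -0.07 in wild type (adjusted p = 0.352). *ife-5* was higher in mutants, at 0.35 (adjusted p = 0.0150, and 0.0581 without replicate 4 at 20 °C), with 0.21 in wild type (adjusted p = 0.221, edgeR), and whether the strains differ in either gene was tested by the interaction above.

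The class medians in the initiation complexes were -0.38 in mutants and -0.41 in wild type for start site selection, -0.27 and -0.30 for eIF2, -0.19 and -0.16 for eIF2B and -0.20 and -0.13 for eIF3, with -0.10 and -0.08 for the cap-binding genes, *ifg-1* of eIF4G included. Both factors of start site selection were lower, *eif-1* at -0.30 in mutants and -0.34 in wild type and *eif-1.A* at -0.47 and -0.49. In the eIF2 class, 4 of 4 genes were lower in mutants and 3 of 4 in wild type. This count and the class median include *eif-2A*, which is not part of the eIF2 complex, at -0.28 in mutants and -0.45 in wild type. In eIF2B 3 of 5 genes were lower in each strain, with *eif-2Bbeta* furthest at -0.40 in mutants and -0.46 in wild type. In eIF3, 9 of 11 subunits were lower in mutants and 8 of 11 in wild type, between -0.42 and -0.05 in mutants and between -0.42 and -0.03 in wild type. *eif-3.B*, *eif-3.E* and *eif-3.I* were at -0.42, -0.39 and -0.40 in mutants and -0.37, -0.38 and -0.42 in wild type, and *eif-3.L* was at -0.20 in mutants and -0.38 in wild type. *eif-3.C* was lower at -0.20 in mutants and -0.13 in wild type. The value in wild type was not past the test without replicate 1 at 20 °C or replicate 2 or 3 at 25 °C (adjusted p = 0.0517 to 0.0887, edgeR), and it was -0.07 with upper-quartile scaling.

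Stage markers separated the temperatures far more than the strains. The stage score was -0.02 to 0.23 in mutants and 0.32 to 0.49 in wild type at 25 °C, against -2.13 to -1.72 in mutants and -1.88 to -1.61 in wild type at 20 °C. With that score as a covariate no gene of all 11579 was past the test in wild type, and in mutants 25 genes were, among them *eef-1A.1* at -0.90 ± 0.18 (SE, adjusted p = 0.0143). Standard errors in that fit were 0.58 to 0.84 for the wild-type genes named here, so that temperature and stage cannot be told apart for single genes.

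Of 38 genes tested in 5 lists of genes that act beside these factors, 3 were past the test between strains at 25 °C, or 7.89%, and 7 at 20 °C, or 18.4%, beside 4.14% and 17.3% of all genes. Of 9 partners in cap, poly(A) and helicase steps, *mxt-1*, which in flies binds eIF4E, was lower in mutants at 20 °C at -0.73 ± 0.15 (SE, adjusted p = 0.00203) with 3.25 ± 0.45 CPM in mutants and 5.47 ± 0.45 CPM in wild type (SD, n = 4 each). At 25 °C 2 of the 9 were higher, *ifet-1*, an eIF4E-binding repressor of the germline, at 0.25 ± 0.06 (SE, adjusted p = 0.0394) and the cap-binding *ncbp-1* at 0.21 ± 0.05 (SE, adjusted p = 0.0224). Of 8 genes of eIF2 kinases and stress responses, 2 were lower in mutants at 20 °C and 1 at 25 °C. *pek-1*, the kinase that phosphorylates eIF2 alpha under endoplasmic reticulum stress, was lower at 20 °C at -0.36 ± 0.05 (SE, adjusted p = 3.19e-05). At 25 °C *pek-1* was at 0.03 ± 0.07 (SE, adjusted p = 0.831), and its interaction was past the test, at 0.36 ± 0.09 (SE, adjusted p = 0.0435, edgeR). *xbp-1*, a transcription factor of the same stress response, was lower at -0.27 ± 0.04 at 25 °C (SE, adjusted p = 0.00448) and -0.32 ± 0.04 at 20 °C (SE, adjusted p = 7.05e-06), with 273 ± 10.9 CPM in mutants and 329 ± 9.81 CPM in wild type at 25 °C (SD, n = 4 each). Of 10 genes of the TOR pathway *pdk-1* alone was past the test, at 0.21 at 20 °C. Of 6 genes of the elongation kinase, release and recycling, 3 were lower at 20 °C, the eEF2 kinase gene *efk-1* at -0.15, *skih-2* at -0.22 and *znf-598* at -0.14, and 0 were past the test at 25 °C. There *efk-1* was at 0.14 ± 0.05 (SE, adjusted p = 0.103), with all mutant libraries above all wild-type libraries, and its interaction was past the test, at 0.26 ± 0.06 (SE, adjusted p = 0.0360, edgeR). None of 5 mitochondrial translation factors was past the test at either temperature.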

How the data were processed

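The authors trimmed reads with Trimmomatic (v0.39) and quantified them with Salmon (v1.5.1) against WBcel235, per the labels, and deposited estimated counts per gene, of which 27.4% were not whole (tolerance 0.01). The annotation release used for counting was not given in the sources used here. Libraries were poly-A enriched, not directional, with paired reads of 150 bases. The deposited comparison tables also hold log2 values per sample, used only to check the column names (16 of 16 count columns matched their own best), and DESeq2 means, fold changes and adjusted p-values, which were not used apart from the gene names.

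Here, the estimated counts were rounded and tested with edgeR (v4.0.16, R v4.3.3) by glmQLFit and glmQLFTest after filterByExpr and TMM scaling, 8 libraries per strain or temperature comparison and 16 for the interaction, with Benjamini-Hochberg adjustment over all genes tested. Standard errors are the log2 fold change over the square root of F. Printed CPM were scaled by TMM over all 16 libraries, and lengths are the union of exons in Ensembl release 115, with 21714 of 21882 genes found. Single values were compared by exact permutation over 70 assignments. The members and gene lists were chosen with earlier results of these data known. Values per library are given for members past the test at both temperatures, up to 5 separated members at each temperature, the largest changes with temperature in wild type, the most abundant member of each class, and related pairs. The fits were tested on simulated data. Other settings tried were limma-voom (limma v3.58.1), DESeq2 (v1.42.0), other scaling and filters, the stage score as covariate, a replicate block, 1 fit of all libraries and each library left out. Of the 39 genes, 12 overlap another coding gene, and 16 had no whole count in any library.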

Additional observations from a re-analysis of the deposited data

Results flagged for a closer look

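Of 76 groups of 4 libraries tested (18 genes and the stage score in 4 groups), 1 had a library apart from the others by Dixon's test at 95%, where chance gives about 3.8. *eif-2Bdelta* had 96.4 CPM in wild-type replicate 4 at 20 °C, against 107 to 109 CPM in the other 3.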

How the results depend on the processing

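The counts of translation factors past the test at 20 °C and at 25 °C were 6 and 2 with RLE or upper-quartile scaling, with other count filters, with DESeq2 and with limma-voom, and 4 and 2 with all 16 libraries in 1 fit. With a fold change above 2 also asked for, they were 0 and 0 between strains and 1 each for temperature in wild type and in mutants. With the stage score as a covariate they were 2 at 20 °C and 0 at 25 °C between strains, and 0 in wild type and 1 in mutants for temperature. At 25 °C this covariate did not overlap between strains, so the strain fit there cannot tell strain and stage apart. That covariate turned the sign of the temperature change, without a call, in wild type for *eif-1* (0.26), *eif-2beta* (0.047), *eif-3.B* (0.53), *eif-3.G* (0.60), *ife-1* (0.30), *iff-1* (0.069), *iff-2* (-0.11), *eef-1A.1* (0.080) and *eef-1B.1* (1.03), and in mutants for *eif-1* (0.12), *ife-3* (0.48), *iff-2* (-0.27), *eef-1A.2* (-0.32) and *erfa-1* (0.018), with the cause not tested. The stage score did not overlap between temperatures in either strain. That fit therefore cannot tell temperature and stage apart, and these signs are not read as reversals. Leaving out each library gave 3 to 6 genes at 20 °C (3 without mutant replicate 2 or wild-type replicate 2), 2 to 5 at 25 °C (5 without wild-type replicate 4), 0 in the interaction, 23 to 28 for temperature in wild type and 30 to 32 in mutants. The shares of all genes past the test in these fits are not given here. In wild type the temperature count was 21 with upper-quartile scaling or a minimum of 10 counts in every library. Replicate numbers were not treated as pairs in the main fits, with correlations of same-numbered libraries of -0.04 to 0.07. A replicate block gave 6 and 2 genes between strains, 0 in the interaction, and 27 in wild type and 31 in mutants for temperature. At 20 °C each mutant library correlated best with the wild-type library of its own number, at only 0.02 to 0.07, a hint from the data and not the design.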
